A study of Mus musculus with 3 samples.

Results

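*Ptgfr*, *Akr1c18*, *Sfrp4*, *Parm1* and *Prlr* are genes known from the mouse corpus luteum, its function and its regression, and they were followed here by name as 5 of the 24958 genes in a single-cell table of mouse ovary. They were chosen by name, with earlier results of these data known and no threshold on a measured value. The corpus luteum forms after ovulation, when the granulosa and theca cells of the ruptured follicle turn into progesterone-secreting luteal cells. Prolactin, acting through its receptor PRLR, sustains luteal progesterone in rodents, and prostaglandin F2alpha, acting through the G protein-coupled receptor PTGFR, starts luteal regression. *Akr1c18* encodes 20alpha-hydroxysteroid dehydrogenase, which converts progesterone to an inactive progestin and is repressed by prolactin. *Sfrp4* encodes a secreted frizzled-related protein that binds Wnt ligands, and *Parm1* encodes a mucin-like membrane protein.

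Ovaries were taken at 0, 1 and 6 h after an injection of human chorionic gonadotropin (hCG), which acts on the luteinizing hormone receptor, and 1 droplet (10x Genomics) library was made per time point, called H0, H1 and H6. The paper read beside these data describes its single-cell ovaries as from Kunming mice, 21 days old and primed 48 h before with PMSG, a gonadotropin that drives follicle growth, and does not tie them to an hCG time point. Which of the 3 libraries had this priming, and how many animals were pooled, was not given in the sources used here. The deposited table pools 31776 cells whose barcodes end in 1, 2 or 3, and no label ties an ending to a library, so that the endings are called set 1 (10384 cells), set 2 (9917 cells) and set 3 (11475 cells) and no time is given to any of them.

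With 1 library per time point there was no replicate and no test. A level is the mean over cells of unique molecular identifiers (UMIs, each a counted mRNA molecule) per 10000 UMIs of the cell. Intervals for levels are exact 95% Poisson intervals of the summed UMIs, scaled to the mean over cells. Those for ratios are exact 95% intervals of the ratio of summed UMIs, scaled in the same way. Both are thus approximate for the means reported, and a ratio of summed UMIs can lie outside them. Shares have exact (Clopper-Pearson) 95% binomial intervals. No interval includes more than counting error. The median depth was 6093, 6352 and 6524 UMIs per cell in sets 1, 2 and 3, and 112 barcodes occurred with 2 endings, against 31776 cells.

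Cells were gated on summed marker genes that do not include the 5. The granulosa gate (*Inha*, *Serpine2* and other markers of granulosa cells, GCs, which line the follicle) held 4400, 4616 and 4786 cells in sets 1 to 3. The steroidogenic gate (*Cyp11a1*, *Star* and others) was split at 5 UMIs per 10000 of *Cyp17a1*, the androgen-making enzyme of theca, into a theca gate of 800, 392 and 305 cells and an interstitial gate of 666, 253 and 452 cells. The stroma gate (*Dcn*, *Col1a1* and others) held 2977, 2692 and 3626 cells. A further 607, 544 and 1115 cells (5.85%, 5.49% and 9.72%) passed no gate, and 183, 413 and 143 passed more than 1. Those in no gate had median steroidogenic sums of 8.97, 11.5 and 36.3 and granulosa sums of 6.19, 7.91 and 11.1. The granulosa gate required more than 0.5 times the steroidogenic sum, so that GCs below this are not in its levels. *Inha* and *Cyp11a1* are themselves among the gating markers, so their levels describe the gates and do not test them. Mean *Inha* was 61.5, 59.4 and 35.9 in the granulosa gate against 6.56, 8.26 and 7.43 in the interstitial gate, and mean *Cyp11a1* was 61.2, 63 and 58.8 in the interstitial gate against 3.1, 4.34 and 7.63 in the granulosa gate. A gate is a range cut from a score: 161 of 1371 interstitial and 231 of 1497 theca cells lay within 2-fold of the *Cyp17a1* limit, and doubling the required margins between classes removed 1927 of 13802 granulosa, 453 of 1371 interstitial, 302 of 1497 theca and 956 of 9295 stroma cells. The gates were not equally firm in each set. By set 1, 2 and 3 the doubled margins removed 96, 519 and 1312 granulosa, 175, 74 and 204 interstitial, 188, 54 and 60 theca and 156, 308 and 492 stroma cells. Theca cells within 2-fold of the *Cyp17a1* limit numbered 116 of 800, 30 of 392 and 85 of 305. The median granulosa marker sum over interstitial cells was 10.6, 12 and 7.41 per 10000, against 126, 140 and 54 over granulosa cells. No doublets were removed. The word interstitial here names steroidogenic cells with little *Cyp17a1*. None of the markers separates interstitial gland cells from luteal cells, so that the 2 cannot be told apart in this gate or in the clusters classed by it.

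The genes lie on 4 chromosomes of mm10 (GRCm38), with positions from the GENCODE annotation. *Ptgfr* (ENSMUSG00000028036) spans chr3:151796502-151837630 on the minus strand, *Akr1c18* (ENSMUSG00000021214) chr13:4132615-4150654 on the minus strand, *Sfrp4* (ENSMUSG00000021319) chr13:19623104-19632994 on the plus strand, *Parm1* (ENSMUSG00000034981) chr5:91517615-91626894 on the plus strand and *Prlr* (ENSMUSG00000005268) chr15:10177238-10349180 on the plus strand. Upstream windows of 250 bases ending at the base before the start site were read from RefSeq's promoter table (GRCm38.p6) for 4 of the 5 genes. RefSeq's start sites differ from the gene ends above for *Ptgfr*, *Akr1c18* and *Parm1*. Those of *Ptgfr* (chr3:151837529-151837778, minus strand) and *Parm1* (chr5:91517450-91517699, plus strand) are shown because these genes were high in GCs of different sets. Capitals mark the nuclear receptor half-site AGGTCA on either strand, here read as its reverse complement.
Ptgfr: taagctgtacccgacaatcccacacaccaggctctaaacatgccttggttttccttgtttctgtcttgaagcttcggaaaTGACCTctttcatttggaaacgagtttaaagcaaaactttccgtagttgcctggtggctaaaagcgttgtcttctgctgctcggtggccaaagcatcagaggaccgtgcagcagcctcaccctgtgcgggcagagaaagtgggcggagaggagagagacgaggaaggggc
Parm1: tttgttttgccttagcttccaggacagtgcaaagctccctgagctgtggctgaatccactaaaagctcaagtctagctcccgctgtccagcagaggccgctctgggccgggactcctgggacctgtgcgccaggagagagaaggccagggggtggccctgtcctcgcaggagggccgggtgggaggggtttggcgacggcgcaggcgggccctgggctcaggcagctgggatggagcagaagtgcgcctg
The half-site stood 170 bases before the *Ptgfr* start site and in none of the windows searched for *Akr1c18*, *Parm1* and *Prlr* (for *Prlr*, the 1 of 3 in the table nearest the annotated start), where 14% of the 32851 windows of this length in the table held it. The letters of a CRE half-site (TGACG, in 17.8% of windows), an AP-1 site (TGANTCA, 6.75%), a STAT site (TTCNNNGAA, 7.02%) and a RUNX site (TGTGGT, 14%) were in none of the 4 windows on either strand. With 1 match in all, no motifs overlapped, and a match is a run of letters, not a shown binding site.

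In outline, *Prlr* was present in GCs, interstitial and theca cells of every set. *Ptgfr* was high in the interstitial-classed cluster of every set and, among GCs, in set 2. *Sfrp4* was high in interstitial cells of every set and in theca cells and GCs of set 3. *Parm1* was high in GCs of set 3, and *Akr1c18* was found in few cells.

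**Figure D1:**
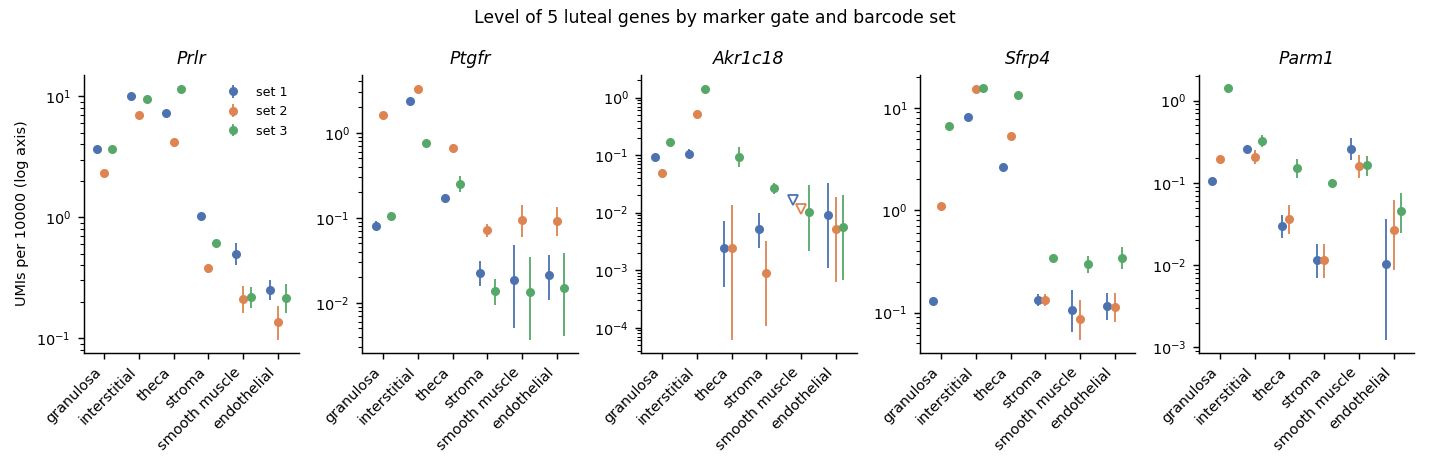
Level of each gene (UMIs per 10000, log axis) by marker gate and barcode set. Points are means over cells, bars 95% Poisson intervals of the summed UMIs scaled to the mean, and open triangles the limit that a count of 0 allows. *Ptgfr* in granulosa cells stands at 1.62 in set 2 against 0.0806 and 0.105 in sets 1 and 3, while *Sfrp4* and *Parm1* in granulosa cells are highest in set 3.

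*Prlr*, the prolactin receptor, had a UMI in 44.3% of all cells, the highest share of the 5. In endothelial cells, taken as cells that should lack the gene, the share was 14.8%, 6.33% and 7.76% by set, at median depths of 5340, 5482 and 4768 UMIs. In the interstitial gate its level was 10.1, 6.99 and 9.45 in sets 1, 2 and 3. In the theca gate it was 7.34, 4.19 and 11.5, and in the granulosa gate 3.69, 2.3 and 3.67. The interstitial level was 2.75-fold (2.68 to 2.82), 3.04-fold (2.92 to 3.16) and 2.57-fold (2.48 to 2.66) the granulosa level. Interstitial exceeded theca cells in sets 1 and 2, by 1.38-fold (1.34 to 1.42) and 1.67-fold (1.58 to 1.77), and by gate it was below them in set 3, at 0.822-fold (0.787 to 0.858). That direction turned with clusters in place of gates, where set 3 had 11.9 (11.1 to 12.6) in the interstitial-classed and 9.03 (8.82 to 9.24) in the theca-classed cluster. Stroma stood lower, at 1.02, 0.377 and 0.618, and endothelial cells at 0.251, 0.136 and 0.215. Set 2 had the lowest *Prlr* level in each of these 5 gates. Its ratio to set 1 was 0.623 (0.605 to 0.642) in GCs, 0.69 (0.663 to 0.717) in interstitial cells, 0.57 (0.543 to 0.599) in theca cells and 0.371 (0.335 to 0.409) in stroma. Over all genes tested, the median log2 ratio of set 2 over set 1 was -0.42, -0.31, -0.46 and -0.15 in the same order. These *Prlr* ratios thus lie against a shifted background. The *Prlr* ratio of sets 3 and 1 in GCs was 0.995 (0.97 to 1.02), but 0.657 with the stricter gate and 1.17 with clusters in place of gates. Counts were given per gene, so that the long and short receptor isoforms were not told apart.

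Within GCs, *Prlr* was unevenly spread. Cells were also clustered in each set without the 5 genes, and clusters were classed by the same marker sums, which gave 8 granulosa clusters per set. The range of the *Prlr* level over them was, by set, 0.52 to 8.37 (median 2.2), 0.147 to 6.08 (median 1.01) and 0.19 to 8.16 (median 1.59). The cluster at the top was marked in every set by *Comp*, which encodes a cartilage matrix protein. The cluster at the bottom had *Kctd14* and *Wfdc10* among its 5 leading genes in every set.

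*Ptgfr*, the prostaglandin F2alpha receptor, was highest in the interstitial gate and differed most between sets in GCs. In the interstitial gate its level by set was 2.34 (2.25 to 2.43), 3.26 (3.1 to 3.43) and 0.753 (0.681 to 0.83), lowest in the last. In GCs it was 0.0806 (0.0713 to 0.0909), 1.62 (1.58 to 1.67) and 0.105 (0.0948 to 0.115). The GC level of set 2 was thus 20.1-fold that of set 1 (17.8 to 22.9), and set 3 stood at 0.0645-fold set 2 (0.0582 to 0.0713). Theca cells had 0.169, 0.663 and 0.251, also highest in set 2, at 3.93-fold (3.35 to 4.6) set 1, or 2.46-fold with summed UMIs. Stroma had 0.0225, 0.0712 and 0.0137 and endothelial cells 0.0211, 0.092 and 0.0149, with overlapping intervals in every set. Both were higher in set 2 than in set 1 as well, by 3.17-fold (2.17 to 4.72) and 4.36-fold (2.15 to 9.42), at levels under 0.1. The part of free RNA in these was not tested. The interstitial level was 29-fold (25.6 to 33), 2.01-fold (1.9 to 2.12) and 7.19-fold (6.25 to 8.27) that of GCs.

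After each cell was thinned to 3000 UMIs, *Ptgfr* was detected in 23% (21.8 to 24.3) of 4368 GCs of set 2, against 1.96% of 4088 in set 1 and 2.45% of 4456 in set 3. The shares before thinning were 31.7%, 4.11% and 5.04%. The share in endothelial cells was 1.02% of 492 in set 2 after thinning. Among GC clusters of set 2 the level ran from 0.0541 to 4.39, with a median of 0.312. The top cluster, of 1042 cells, was led by *Comp*, *Tnfsf11* and *Npy*, and its 4.39 (4.23 to 4.55) stood just under that of the interstitial-classed cluster of the same set, at 5 (4.75 to 5.25). The next in order were a cluster of 502 cells led by *Gm45650*, *Zpld1* and *Inhbb*, at 2.44, and a cluster led by the mitotic genes *Ube2c* and *Top2a*, at 1.88. Clusters led by *Mycl* or *Kctd14* had 0.0583 and 0.0766, near the endothelial level. The *Comp*-led cluster of set 1 had 0.177 and that of set 3 had 0.122, where the highest GC cluster, led by *Ptx3*, had 0.328.

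*Akr1c18*, the progestin-inactivating enzyme, was found in 469 of 31776 cells (1.48%). Of its 2277 UMIs, the 10 cells with the most held 48%, and 12 cells held at least 50%. In the other genes the 10 highest cells held between 1.85% and 5.03%. The interstitial level was 0.106, 0.516 and 1.42 in sets 1, 2 and 3, and the granulosa level 0.0915, 0.0497 and 0.169. A single cell carried 199 of the 204 interstitial UMIs of set 2. Without it, the set 2 level was 0.00616 (0.002 to 0.0144), and without the highest cell of sets 1 and 3, of 46 and 280 UMIs, those levels were 0.0729 and 0.84. The Poisson intervals are therefore too narrow for this gene. They leave out the spread between cells for the other genes as well. In theca cells of set 1, for example, 8 cells held 59% of the 305 *Ptgfr* UMIs, and 1 cell held 52. Theca levels were 0.00245, 0.00241 and 0.094, from 3, 1 and 26 UMIs, and endothelial levels were 0.00907, 0.0051 and 0.00563, from 2 UMIs in each set.

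Cells with at least 5 *Akr1c18* UMIs numbered 26, 6 and 44 by set and held 71%, 74.9% and 78.2% of the UMIs of their set. Most of them lay in the granulosa and interstitial gates. In set 3, 10 interstitial cells held 715 UMIs and had a mean *Ptgfr* level of 7.72, *Sfrp4* of 55.8, *Cyp11a1* of 95.4 and *Inha* of 5.26. The 24 granulosa cells of set 3 held 359 UMIs and had *Ptgfr* at 0.152, *Sfrp4* at 12.4 and *Inha* at 52. In set 1 the 6 interstitial cells had *Ptgfr* at 8.65 and *Sfrp4* at 33, while the 17 granulosa cells had *Ptgfr* at 0.205, *Sfrp4* at 0.107 and *Inha* at 97.8. Reads of near-identical *Akr1c* copies can be split by the counting, so the level of this gene carries that uncertainty.

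**Figure D2:**
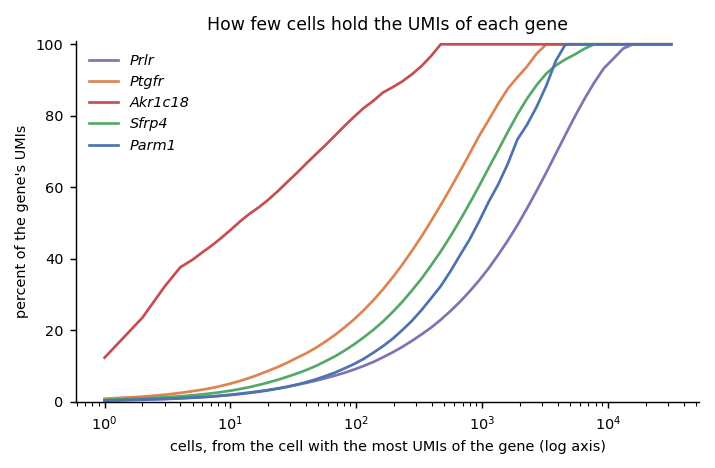
Cumulative percent of each gene's UMIs against the number of cells, counted from the cell with the most (log axis), over all 31776 cells. The *Akr1c18* curve reaches 48% with 10 cells, where the other 4 genes are between 1.85% and 5.03%.

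*Sfrp4*, the secreted Wnt antagonist, had the largest ratio between sets in GCs of the 5 genes. Its GC level by set was 0.129 (0.118 to 0.142), 1.1 (1.06 to 1.13) and 6.62 (6.53 to 6.71). Set 3 stood 51.2-fold (46.7 to 56.2) above set 1 and 6.03-fold (5.82 to 6.25) above set 2. The set 1 level was no higher than that of stroma, at 0.133, and overlapped that of endothelial cells, at 0.115. The ratios over set 1 of GCs therefore stand on a level that these gates also had, and the part of free RNA in it was not tested. Stroma and endothelial cells also had overlapping levels in set 2 (0.134 and 0.113) and in set 3 (0.344 and 0.344). Theca cells had 2.66, 5.29 and 13.4, a 5.04-fold (4.82 to 5.27) ratio of set 3 over set 1. Interstitial cells had 8.21, 15.1 and 15.5, with a ratio of sets 3 and 2 by gate of 1.03 (0.993 to 1.06). In the interstitial-classed clusters set 3 was above set 2, at 33.5 (32.3 to 34.8) against 21.4 (20.9 to 22). The interstitial level was 63.5-fold (57.8 to 69.8), 13.8-fold (13.2 to 14.4) and 2.35-fold (2.28 to 2.41) that of GCs, and in set 3 it was by gate 1.16-fold (1.11 to 1.2) that of theca cells. The theca-classed cluster of set 3 had 11 (10.8 to 11.2), further below the 33.5 of the interstitial-classed one.

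*Sfrp4* was detected in 35.9% (34.5 to 37.3) of thinned GCs of set 3, against 14% in set 2 and 2.89% in set 1, where unthinned shares were 46.4%, 21.2% and 6.14%. Thinned endothelial cells had it in 7.55%, 2.64% and 1.74% (0.641 to 3.75) of sets 3, 2 and 1. The interval of set 1 held the GC share, but rests on 6 of 345 endothelial cells, so that the shares were not told apart. In GCs of set 1, 44 of 4400 cells held 52% of the *Sfrp4* UMIs. Over GC clusters its range by set was 0.0728 to 0.177, then 0.0888 to 3.5 and 0.211 to 17.5. The top cluster of set 3 held 1940 cells, was led by *Npy*, *Lyve1*, *Comp* and *Rnf180*, and had *Star*, which carries cholesterol into mitochondria, at 17.1 and *Inha* at 47.5. The top cluster of set 2 was the *Comp*- and *Tnfsf11*-led one in which *Ptgfr* was also highest.

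*Parm1*, the mucin-like gene, was high in GCs of set 3. Its GC level was 0.105 (0.0942 to 0.116), 0.194 (0.18 to 0.208) and 1.42 (1.38 to 1.46) in sets 1, 2 and 3, and set 3 stood 13.6-fold (12.2 to 15.1) above set 1 and 7.34-fold (6.79 to 7.94) above set 2. It was detected in 29.1% (27.8 to 30.5) of thinned GCs of set 3, against 5.06% in set 2 and 2.84% in set 1 (46.1%, 11.5% and 7.34% unthinned), where thinned endothelial cells of the same sets had 1.26%, 0.407% and 0.58% (0.0703 to 2.08). In interstitial cells it was 0.258, 0.207 and 0.327, which put the interstitial-to-granulosa ratio by set at 2.47 (2.13 to 2.86), 1.07 (0.869 to 1.3) and 0.23 (0.192 to 0.272). Theca cells had 0.0299, 0.0368 and 0.152 and stroma 0.0116, 0.0115 and 0.0994. Endothelial cells had 0.0102, 0.0266 and 0.0455, with intervals that overlapped those of stroma in sets 1 and 2.

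In set 3 the *Parm1* level was highest in the same GC cluster as *Sfrp4*, at 2.63. A mitotic cluster led by *Ube2c* and *Prc1* followed at 2.08, and a cluster led by *Ptx3*, a gene of the expanding cumulus matrix, and *Spp1*, at 1.82, where *Sfrp4* was 4.28 and 2.73. Smooth muscle clusters also held *Parm1*. Those led by *Rgs5*, a pericyte gene, had it at 0.489, 0.523 and 0.433 in sets 1, 2 and 3, with overlapping intervals. The clusters led by *Actg2*, of contractile smooth muscle, had 0.0389, 0.0134 and 0.0526.

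**Figure D3:**
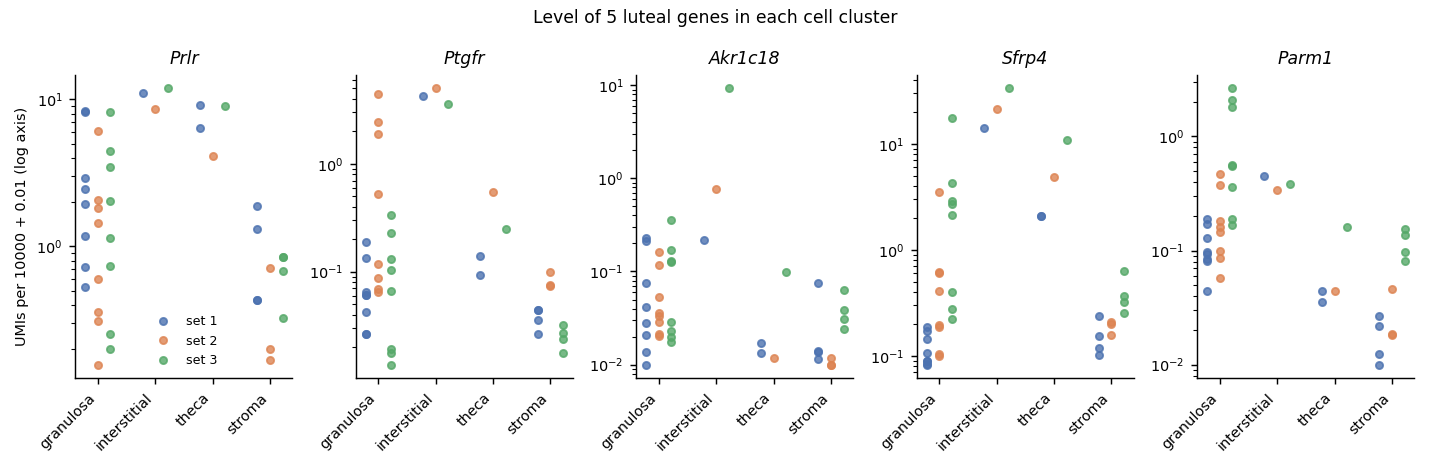
Level of each gene (UMIs per 10000 plus 0.01, log axis) in every cluster classed granulosa, interstitial, theca or stroma, by barcode set. Each point is 1 cluster. Granulosa clusters of set 3 spread from 0.211 to 17.5 for *Sfrp4*, and the *Akr1c18* level of the interstitial cluster of set 3 is 9.26.

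The interstitial gate itself was not uniform. Each set had 1 cluster classed interstitial, of 385, 174 and 65 cells, led by *S100a6* and *Pik3c2g* in sets 1 and 2 and *Gm2a* in sets 2 and 3. Although the 5 genes were kept out of the clustering, *Sfrp4*, *Ptgfr* or *Akr1c18* was also among the leading genes in sets 1 and 3, and *Hsd17b7* led in set 2. None of the steroidogenic markers was among the first 5 genes, and the class rests on the summed markers alone. It held 49.4%, 56.1% and 13.1% of the interstitial gate, and 48.3%, 33.2% and 61.1% of the gate lay in theca-classed clusters. A further 18.8% of the gate in set 3 (85 of 452 cells) lay in granulosa-classed clusters, against 0.601% and 3.16% in sets 1 and 2. *Ptgfr* was 4.68, 5.71 and 3.62 in the interstitial-gate cells of the interstitial-classed cluster and 0.0529, 0.0842 and 0.348 in those of theca-classed clusters. The interstitial-classed cluster held 2845 of 2864, 1539 of 1550 and 284 of 404 *Ptgfr* UMIs of the gate, and the lower gate level of set 3 stood beside its smaller share of those cells, whose part in it was not tested. *Sfrp4* was 15, 24.5 and 33.2 against 1.6, 3.68 and 13.3, and *Akr1c18* was 0.207, 0.92 and 10.2 against 0.00838, 0 and 0.119. *Parm1* was 0.496, 0.368 and 0.372 against 0.026, 0 and 0.138. *Prlr* differed least, at 12, 10 and 12.2 against 8.41, 3.72 and 9.34. The cells of the interstitial-classed cluster had a median of 13665, 17436 and 11195 UMIs against 9632, 8706 and 9046, and doublets were not called. In the whole interstitial-classed cluster of set 3, 8 of 65 cells (12.3%) had *Akr1c18*, against 16 of 385 (4.16%) in set 1 and 3 of 174 (1.72%) in set 2.

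**Figure D4:**
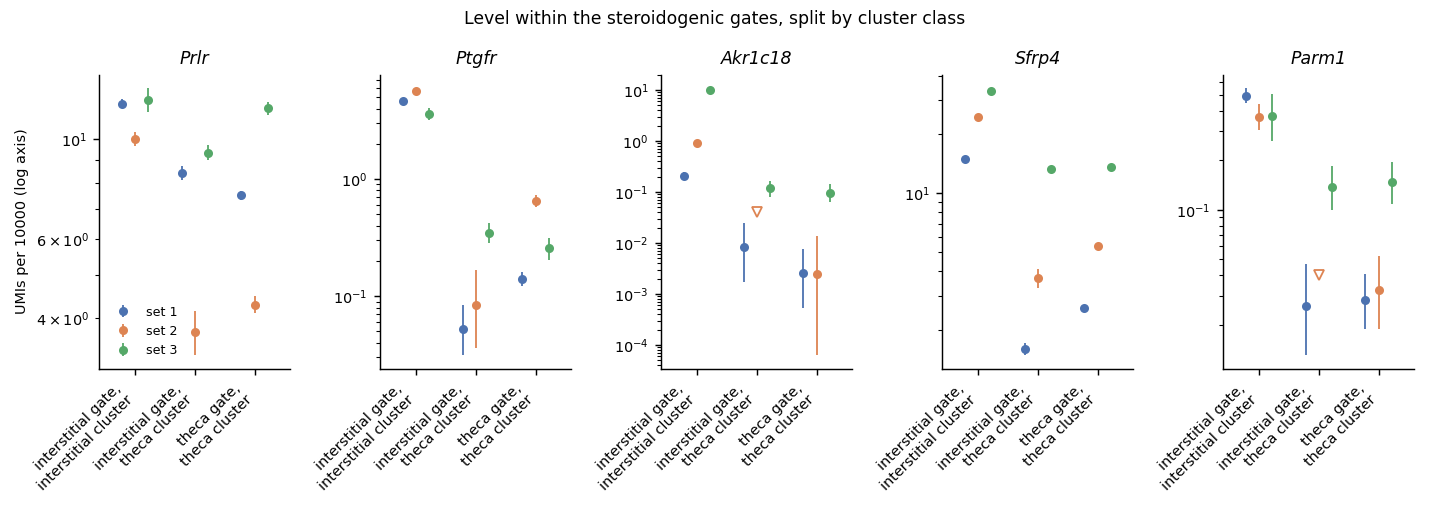
Level of each gene (UMIs per 10000, log axis) in interstitial-gate cells of the interstitial-classed cluster, interstitial-gate cells of theca-classed clusters, and theca-gate cells of theca-classed clusters. Points are means over cells, bars 95% Poisson intervals of the summed UMIs scaled to the mean, open triangles the limit of a count of 0. *Ptgfr* is between 3.62 and 5.71 in the first and between 0.0529 and 0.652 in the others.

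The 5 were chosen with earlier results of these data known, so the counts below describe them and do not support an excess over all genes. Counted at a limit of 2-fold, among genes with a level of at least 0.1 in at least 1 of the compared groups, the 5 stood as follows. Of the calls below, *Ptgfr* in set 2 over set 1 and *Akr1c18* in set 3 over set 2 of GCs, *Parm1* in theca cells, and *Ptgfr* of set 1 and *Akr1c18* of set 2 between interstitial cells and GCs passed this limit only through the group in which they were high. From set 1 to set 2 in GCs, *Ptgfr* and *Sfrp4* were higher (2 of 4 tested) where 5.8% of all genes were, and 0 were lower where 14.8% were. From set 1 to set 3, *Sfrp4* and *Parm1* were higher (2 of 5) where 7.46% of genes were, and 0 were lower where 9.86% were. Between sets 2 and 3, *Akr1c18*, *Sfrp4* and *Parm1* were higher in set 3 (3 of 5) where 17% of genes were, and *Ptgfr* was lower where 7.43% were. The *Akr1c18* call was lost with the stricter gate, where its ratios to set 1 were 0.542 in set 2 and 0.931 in set 3. In interstitial cells *Akr1c18* alone was higher in set 2 than in set 1 (5.05% of genes, and 13.2% lower), a call that rests on 1 cell. *Akr1c18* was also higher in set 3 than in set 1 there (8.58% of genes), at 13.3-fold, or 44.9-fold with clusters and 21.7-fold with the stricter gate. *Ptgfr* was lower (11.2%), at 0.322-fold, but at 0.854-fold with clusters, where it was no longer past 2-fold. In theca cells *Ptgfr* was higher in set 2 than in set 1 (1 of 3 tested, where 6.87% of genes were higher and 20.6% lower), and *Sfrp4* and *Parm1* were higher in set 3 than in set 1 (2 of 4, where 10.1% were higher and 13% lower). Between interstitial cells and GCs, 4 of 5 were higher in interstitial cells in every set (all but *Akr1c18* in set 1, all but *Parm1* in sets 2 and 3), where 8.49%, 10.3% and 6.08% of genes were. The *Akr1c18* call of set 2 rests on the same single cell, without which the interstitial level, 0.00616, was below that of GCs, 0.0497. In the other direction stood *Parm1* in set 3 only, where 12%, 13.4% and 8.6% of genes were lower in sets 1, 2 and 3. The median log2 ratio over all genes tested was -0.42 for set 2 over set 1 in GCs, -0.09 for set 3 over set 1 and 0.31 for set 3 over set 2, so that the ratios of set 2 lie against a shifted background.

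Detection of at least 3 of the genes in the same cell was most common in interstitial cells in sets 1 and 2, and in set 3 its interval overlapped those of theca cells and GCs. After thinning to 3000 UMIs, which kept 12912 of 13802 granulosa, 1290 of 1371 interstitial, 1470 of 1497 theca and 8293 of 9295 stroma cells, at least 3 of the 5 were found in 25.7% (22.3 to 29.3), 38.7% (32.5 to 45.3) and 15.6% (12.2 to 19.4) of interstitial cells in sets 1, 2 and 3. With clusters in place of gates the interstitial shares were 48.9%, 59% and 60.3%, so that set 3 went from the lowest to the highest. The shares were 2.15%, 6.6% and 8.64% (5.72 to 12.4) in theca cells and 0.294%, 6% and 12.8% (11.8 to 13.8) in GCs. At least 2 of the 5 were found in 64.2% of interstitial and 65.8% of theca cells of set 3. In stroma, 2 cells of 8293 had 3 of the genes. At least 1 of the 5 was found in 9.57%, 6.3% and 13.8% of endothelial cells.

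**Figure D5:**
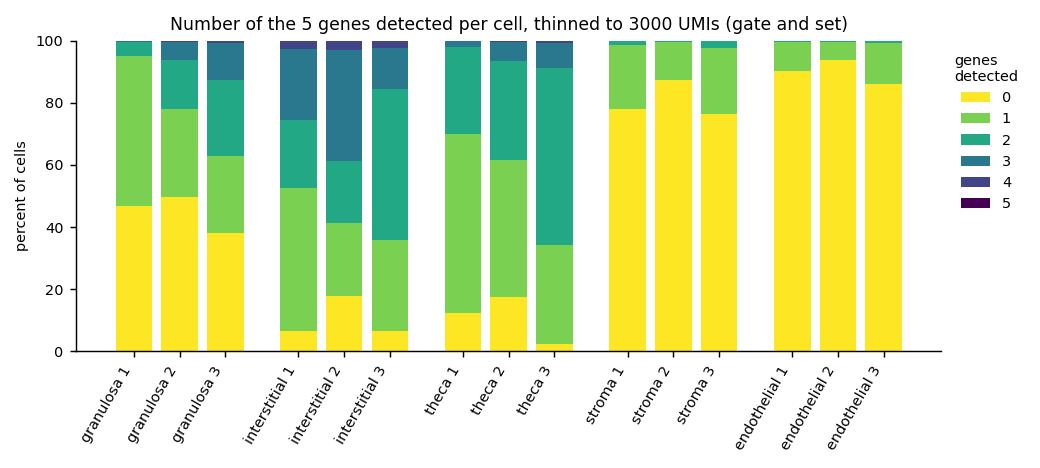
Percent of cells with 0 to 5 of the genes detected, after thinning to 3000 UMIs, by gate and set (the number after each gate name is the set). Interstitial cells with at least 3 of the genes make up 25.7%, 38.7% and 15.6% by gate (48.9%, 59% and 60.3% by cluster), against 0.294%, 6% and 12.8% of granulosa cells.

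For pairs, the share of cells with both was set beside the product of the single shares. *Ptgfr* and *Sfrp4* were found together in 24.9% (21.6 to 28.4) of interstitial cells of set 1, where the product was 12.5%, in 39.6% (33.3 to 46.1) of set 2, where it was 25.9%, and in 12.3% (9.3 to 15.8) of those of the last set, where it was 8.62%. In GCs of set 2 the pair stood at 6.2% (5.51 to 6.96) against 3.23%. *Prlr* was also found more often than the product with *Ptgfr* in GCs of set 2, at 14.8% (13.7 to 15.9) against 8.17%, and with *Sfrp4*, at 8.97% (8.14 to 9.86) against 4.97%. In GCs of set 3, *Sfrp4* and *Parm1* were together in 15.1% (14 to 16.2) against 10.4%, *Sfrp4* and *Prlr* in 24.8% (23.6 to 26.1) against 15.4%, and *Parm1* and *Prlr* in 18.1% (17 to 19.3) against 12.5%. In theca cells of set 3, *Sfrp4* and *Prlr* were together in 63.5% (57.7 to 68.9) against 63.1%, within counting error. *Parm1* and *Prlr* were at or near the product in interstitial cells, at 5.55% against 5.95%, 4.26% against 3.76% and 5.9% against 6.04%. *Akr1c18* was in too few thinned cells for most pairs. In GCs of set 3 it was found with *Sfrp4* in 50 of 4456 cells, where the product gave 32.3 cells, and with *Parm1* in 27, where it gave 26.2. Other GC pairs also lay near the product. In set 2, *Parm1* was found with *Sfrp4* in 0.733% against 0.709%, with *Ptgfr* in 1.28% against 1.17% and with *Prlr* in 1.99% against 1.79%. Where the interstitial gate was replaced by the interstitial-classed clusters, the ratio of observed to product for *Ptgfr* and *Sfrp4* in set 1 went from 1.99 to 1.17. The granulosa gate also pools clusters with unlike shares. In set 2, the *Comp*-led cluster had *Ptgfr* in 54.5% and *Sfrp4* in 37.1% of thinned cells, against 9.73% and 7.55% in the largest cluster. In set 3, the *Npy*-led cluster had *Sfrp4* in 69.6% and *Parm1* in 49%, against 8.45% and 4.22% in the *Kctd14*-led one. The part of these differences between clusters in the GC pairs was not tested.

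The likeness of patterns was taken as Pearson's r of log2(level + 0.1) over 20 points (gates by sets with at least 50 cells), ranked over 6310 genes and given as a description, since points share sets and depth. Among the 5 themselves, *Sfrp4* and *Prlr* were closest (r = 0.84) and *Ptgfr* and *Parm1* farthest (r = 0.30). Closest to *Ptgfr* were *Cst8* (r = 0.90), *Mapkapk3* (0.89) and *Nrn1* (0.87). *Cst8*, a cystatin gene, had 3.7, 3.99 and 0.779 in interstitial cells and 0.1, 0.51 and 0.0529 in GCs. Closest to *Sfrp4* were *Gm15543* (0.93), *Bag1* (0.93) and *Ghitm* (0.92). Closest to *Parm1* were *Ephx2* (0.83), *Rnf180* (0.81) and *Cited1* (0.80), and *Ephx2*, which encodes soluble epoxide hydrolase, had 5.11, 11 and 38.7 in GCs. Closest to *Prlr* were *Mgarp* (0.97), itself among the gating markers, *Me1* (0.96) and *Fdxr* (0.95), which encodes the reductase that feeds electrons to steroidogenic enzymes. Among the genes closest to *Akr1c18* were *Nrcam* (0.82) and *Tmx1* (0.79). The interstitial point of *Akr1c18* in set 2, at 0.516, rests on 1 cell and was 0.00616 without it.

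The rest of each pathway was read from lists. Some list genes were under the level limit of 0.1 in 1 of the compared groups and passed it only through the group in which they were high. For these the limit itself fixed the direction of a difference, but not that it reached 2-fold. Those past 2-fold are named beside each count, and the counts and medians describe the lists without supporting a direction. In prolactin signalling (9 genes), interstitial cells exceeded GCs by at least 2-fold in 4, 5 and 3 genes of sets 1, 2 and 3 (8.49%, 10.3% and 6.08% of all genes), *Prlr* among them, with medians of 0.71, 1.13 and 0.32 on the log2 scale against -0.17, -0.11 and -0.14 over all genes. *Cish* passed only through interstitial cells in sets 1 and 2. *Hsd17b7*, which encodes a PRLR-associated steroid dehydrogenase, had 4.65, 8.46 and 1.66 in interstitial cells, 17.5-fold (16.3 to 18.8), 34.2-fold (31.8 to 36.9) and 4.25-fold (3.92 to 4.61) the GC level. In the interstitial-classed clusters it had 7.8, 12.6 and 8.8, so that set 3 was not the lowest there. Interstitial values of all lists are by gate, and these clusters held 49.4%, 56.1% and 13.1% of the gate. The part of this make-up in the list values was not tested. *Cish*, a feedback inhibitor of STAT5 signalling, was 7.99-fold, 14-fold and 4.71-fold higher. *Socs2*, of the same inhibitor family, went the other way, at 0.173-fold and 0.219-fold in sets 1 and 2 and 0.644-fold in set 3. In GCs, *Stat5a* and *Stat5b*, which carry the signal to the nucleus, were lower in set 2 than in set 1, at 0.475-fold (0.422 to 0.535) and 0.494-fold (0.447 to 0.545), and *Socs1*, a further inhibitor, was higher at 0.229, 0.468 and 0.152. These were the 2 lower and the 1 higher of 8 tested, against 14.8% and 5.8% of all genes, and the list's median was -0.31 against -0.42 over all genes. *Cish* alone was higher in set 3 than in set 1 (1 of 9, where 7.46% of all genes were), passing only through set 3, and 0 were lower (9.86%). *Socs1* alone was lower in set 3 than in set 2 (1 of 9, where 7.43% of all genes were), and 0 were higher (17%). The medians were -0.12 against -0.09 and 0.25 against 0.31, near those of all genes.

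In the list of PTGFR signalling (12 genes, 9 tested in GCs), *Ptgfr* was the single gene at least 2-fold higher in GCs of set 2 than of set 1 (5.8% of all genes), passing only through set 2, and 0 were lower (14.8%). *Gna11*, a G protein subunit that couples such receptors, had 1.16, 0.637 and 1.71 in GCs and *Plcb4*, a phospholipase downstream, 0.113, 0.0916 and 0.288. Both were higher in set 3 than in set 2, by 2.68-fold (2.55 to 2.81) and 3.15-fold (2.77 to 3.58), where *Ptgfr* was lower. With *Ptgfrn*, at 2.17-fold (1.91 to 2.48), they were the 3 higher of 9 tested, and *Ptgfr* the 1 lower, against 17% and 7.43% of all genes. *Plcb4* and *Ptgfrn* passed only through set 3. *Prkcd*, a protein kinase C, was lower in interstitial cells than in GCs, at 0.141-fold, 0.185-fold and 0.23-fold, passing only through GCs in sets 1 and 3.

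In the progestin-catabolism list, *Akr1c6*, 1 of the 11 genes, was not analysed here, and 4 or 5 passed the level limit in GCs. *Akr1c14*, a 3alpha-hydroxysteroid dehydrogenase gene, had 3.34, 1.05 and 0.44 in GCs, where *Akr1c18* had 0.0915, 0.0497 and 0.169. Set 3 thus stood at 0.132-fold (0.125 to 0.139) of set 1 for *Akr1c14* and at 1.84-fold (1.59 to 2.14) for *Akr1c18*, which turned to 0.931-fold with the stricter gate. *Akr1cl* had 75, 38.8 and 22.7 in interstitial cells and 37.2, 18.7 and 18 in GCs. *Srd5a1*, a 5alpha-reductase gene, was lower in set 2 than in set 1 in GCs, at 0.366-fold (0.309 to 0.432), and passed only through set 1. With *Akr1c14* it made 2 of 4 lower and 0 higher there (14.8% and 5.8% of all genes), with a median of -1.22 against -0.42. In set 3 over set 1, *Akr1c14* and *Akr1cl* were lower (2 of 5, where 9.86% were) and 0 higher (7.46%), with a median of -0.59 against -0.09.

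In the Wnt list (19 genes), 3 of 11 tested were at least 2-fold higher in GCs of set 3 than of set 1, *Sfrp4*, *Fzd1* and *Wnt4*, where 7.46% of all genes were, and *Frzb* was lower, where 9.86% were. *Fzd1* passed only through set 3. The list's median was -0.31 against -0.09 over all genes. In set 2 over set 1, *Sfrp4* was higher and *Fzd2* and *Frzb* lower (of 9, where 5.8% and 14.8% of all genes were). The list's median there was 0.02 against -0.42. In set 3 over set 2, 4 were higher and 3 lower (of 11, where 17% and 7.43% of all genes were). Of these, *Fzd2* in both comparisons and *Fzd1*, *Fzd5* and *Fzd7* in the latter passed only through the higher set. *Wnt4*, a ligand of female gonad development and luteal cells, had 0.209, 0.403 and 1.24 in GCs and 0.892, 3.43 and 2.45 in interstitial cells. *Frzb*, another secreted frizzled-related gene, had its order of sets in GCs opposite to that of *Sfrp4*, at 0.729, 0.303 and 0.123, and in interstitial cells it had 0.0711, 0.0934 and 0.438, highest in set 3. *Fzd1*, a receptor, had 0.0329, 0.0612 and 0.212 in GCs. *Axin2*, a common read-out of Wnt signalling, was at 0.0427, 0.0315 and 0.0359, under the level limit.

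In the luteinization list (12 genes), 6 of 11 tested were at least 2-fold higher in GCs of set 2 than of set 1 (5.8% of all genes) and 0 lower (14.8%), with a median of 1.55 against -0.42. In set 3 over set 1, 7 of 12 were higher (7.46% of all genes) and *Lhcgr* was lower (9.86%), with a median of 1.15 against -0.09. *Ptx3* and *Runx2* in both comparisons, and *Snap25* in the second, passed only through the higher set. *Ptx3* had 0.0042, 0.463 and 0.922 in GCs. *Runx1*, a transcription factor, had 0.596, 3.82 and 5.91. *Runx2*, of the same family, had 0.055, 0.161 and 2.44 in GCs, and 2.01, 2.51 and 1.79 in interstitial cells. *Lhcgr*, the luteinizing hormone receptor, had 1.14, 0.74 and 0.245 in GCs and 6.92, 5.65 and 0.882 in interstitial cells. In the regression list (19 genes, 14 tested), *Atf3*, *Nr4a1*, *Edn1* and *Junb* were at least 2-fold higher in GCs of set 2 than of set 1, and *Bcl2l1* lower, against 5.8% and 14.8% of all genes. *Edn1* passed only through set 2, here and in the comparison of sets 3 and 2. The list's median was 0.49 against -0.42 over all genes. In set 3 over set 1, *Timp1* and *Atf3* were higher (2 of 13, where 7.46% were) and 0 lower (9.86%), with a median of 0.40 against -0.09. In set 3 over set 2, *Timp1*, *Casp8* and *Bcl2l1* were higher (3 of 14, where 17% were) and *Nr4a1*, *Edn1* and *Junb* lower (7.43%), with a median of -0.06 against 0.31. *Nr4a1*, an immediate early factor, had 0.984, 5.8 and 0.723 in GCs. *Timp1*, an inhibitor of matrix proteases, had 0.134, 0.204 and 3.06 in GCs, and its interstitial level of 1.34, 2.6 and 12.6 was also highest in set 3.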

How the data were processed

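Ovarian cells of 3 libraries (H0, H1 and H6, 1 per time point) were given as 1 pooled table. The authors deposited natural log values, ln(1 + UMIs per 10000 UMIs of the cell), for 24958 genes in 31776 cells, and the submitters' processing notes name Cell Ranger, Seurat and mm10, with no versions. The table was turned back into UMIs, and 100% of its values above 0 were whole within 0.01 UMI. The largest number of UMIs in a cell was 133658 and the smallest 500. Gates required a granulosa marker sum of at least 10, a steroidogenic sum of at least 30 or a stroma sum of at least 15 per 10000, with ratios between classes, set after the marker values had been seen. Clusters (Louvain, 30 principal components of 2000 variable genes, 15 neighbours) were made per set without the 5 genes, and clusters under 1 in 3 of their set's median UMIs were not classed. Numpy 2.4.6, scipy 1.17.1, scikit-learn 1.9.0 and python-igraph 0.11.9 were used, and ratios and intervals were checked on simulated counts. Named genes were the 5, list genes past 2-fold with the largest ratios, and the 3 genes most like each of the 5, of which 1 is not reported here. *Axin2*, under the level limit, was added after its values were seen. The 5 genes and the lists were chosen with earlier results of these data known. Other gates, clusters, depths, scalings and filters were tried. Reads, and the tie of endings to libraries, were not analysed here.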

Additional observations from a re-analysis of the deposited data

Results flagged for a closer look

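Ratios between sets that pointed in opposite directions in 2 gates, both beyond 1.5-fold and their counting intervals, were picked out. The difference between the gates was not tested. *Akr1c18* in set 2 over set 1 was 4.86 in the interstitial gate and 0.543 in the granulosa gate, and 199 of the 204 interstitial UMIs of set 2 came from 1 cell, without which, and without the highest cell of set 1, the interstitial ratio was 0.0846. *Prlr* in set 3 over set 1 was 1.57 in the theca gate and 0.607 in the stroma gate. The theca ratio depends on the cells compared. The theca-classed clusters of set 1 had *Prlr* at 6.39 (742 cells) and 9.19 (528 cells), and that of set 3 had 9.03 (771 cells).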

How the results depend on the processing

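No paired analysis was possible because each time point had 1 library and no test was made. Over the 3 sets, the mean interstitial level over the mean granulosa level was 3.51 for *Ptgfr*, 6.58 for *Akr1c18*, 4.95 for *Sfrp4*, 0.46 for *Parm1* and 2.75 for *Prlr*. With Louvain clusters in place of gates it was, in the same order, 7.34, 35.3, 8.02, 0.663 and 3.16, with the stricter gate 4.97, 14.8, 8.78, 0.502 and 3.61, and with summed UMIs 4.79, 8.76, 6.35, 0.555 and 3.36. With cells of 1000 UMIs up to the 99th percentile it was 3.17 for *Ptgfr*, 4.79 for *Sfrp4*, 0.406 for *Parm1* and 2.65 for *Prlr*, and with totals without the 50 most abundant genes 5.22 for *Sfrp4* and 2.86 for *Prlr*. Leaving out a set gave 2.32 to 16.7 for *Ptgfr*, 4.41 to 8.85 for *Akr1c18*, 3.52 to 19 for *Sfrp4*, 0.33 to 1.56 for *Parm1*, which reversed without set 3, and 2.66 to 2.86 for *Prlr*. Without the highest *Akr1c18* cell of each gate and set, an alternative chosen after seeing the data, the *Akr1c18* ratio was 3.37 and its interstitial ratio of set 2 over set 1 reversed from 4.86 to 0.0846, since 1 cell held those UMIs.

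For set 3 over set 1 in granulosa cells, clusters gave 69.6 for *Sfrp4*, 15.3 for *Parm1* and 1.17 for *Prlr*. The stricter gate gave 0.931 for *Akr1c18*, a reversal from 1.84, and 42.5, 11.6 and 0.657 for *Sfrp4*, *Parm1* and *Prlr*. Summed UMIs gave 38.5 for *Sfrp4*, the depth limits 2.16 for *Akr1c18* and the other totals 0.95 for *Prlr*. For set 3 over set 1 in interstitial cells, *Parm1* reversed from 1.27 to 0.835 with clusters, 0.7 with the stricter gate and 0.877 with summed UMIs, and *Prlr* from 0.932 to 1.07 with clusters. *Ptgfr* there moved from 0.322 to 0.854 with clusters and so was no longer 2-fold lower. *Ptgfr* in theca cells reversed from 1.48 to 0.848 with summed UMIs. The causes were not tested.

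Interstitial cells with at least 3 of the 5 genes were 25.7%, 38.7% and 15.6%, against 18.6%, 27.4% and 10.1% at 2000 UMIs and 40.7%, 50.2% and 29.2% with no thinning. The stricter gate gave 30.8% and 51.5% in sets 1 and 2, and clusters, also chosen after seeing the data, 48.9%, 59% and 60.3%. With no limit on low levels, 2159 genes were higher and 3895 lower in granulosa cells of set 2 over set 1, where 508 and 1301 passed with it. The numbers were 2460 and 3271 against 670 and 886 for set 3 over set 1, and 3701 and 2593 against 1463 and 640 for set 3 over set 2. For interstitial cells they were 1619 and 2988 against 430 and 1125 for set 2 over set 1, and 2080 and 2621 against 751 and 977 for set 3 over set 1. For theca cells they were 1952 and 3810 against 566 and 1699, and 2135 and 2626 against 857 and 1106. For interstitial over granulosa cells they were 2883 and 2720 against 772 and 1087 in set 1, 2731 and 2532 against 840 and 1093 in set 2, and 2282 and 2135 against 529 and 749 in set 3, so that the split moved toward the higher side there. With a pseudocount of 0.01, *Cst8*, *Nrcam*, *Ephx2* and *Mgarp* were among the 3 genes most like their member as well, and *Gm15543* and *Nrn1* were not among the first 10. At these depths *Akr1c18* in theca, stroma and endothelial cells rested on a few UMIs, and single libraries allow no statement on time.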
